A study of Danio rerio with 2 samples.

Results

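The receptor subunit genes for the inhibitory transmitters GABA and glycine were examined in the hypothalamus of male zebrafish. Members were all genes whose listed name begins, in either case, with gabra, gabrb, gabrd, gabrg, gabrr, gabrz, gabbr, glra or glrb and that had at least 10 unique molecular identifiers (UMIs) over both libraries. All 26 matching names passed this minimum, out of 32057 listed features, of which 23614 had at least 10 UMIs. The lowest members were gabrr1, with 13 and 11 UMIs in the 2 libraries, and GABRR1, with 10 and 18 UMIs, and no matching name lay below the minimum.

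The study compared wild-type fish (WT) with fish carrying CRISPR/Cas9 knockouts of both cholecystokinin genes, cck1 and cck2 (CCK1/2-KO). Both groups were males of 6 months. Each group was a pool of 30 fish, from whose hypothalami 1 droplet-based single-cell RNA library was made. Cholecystokinin is a peptide of gut and brain known for its part in satiety, and the study asked what it does in reproduction. Because each genotype is 1 pool and 1 library, genotype, pool, dissociation and library run cannot be told apart. No test was made for that reason, and every interval given here covers counting error only, at 95%.

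GABA-A receptors and glycine receptors are pentameric channels that let chloride through. In mammals most GABA-A receptors combine alpha and beta subunits, which bind GABA between them, with a gamma or delta subunit, while rho subunits form channels of their own. GABA-B receptors are not channels: they pair a GABBR1 subunit, which binds GABA, with a GABBR2 subunit, which couples to G proteins. Glycine receptors are built of alpha subunits, which bind glycine, alone or with the beta subunit, which ties the channel to gephyrin at synapses. In the hypothalamus GABA is the main fast inhibitory transmitter and acts on neurons that control feeding, stress hormones and reproduction.

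Sequencing depth was 51744329 UMIs over 9364 barcodes in WT and 58095515 UMIs over 11604 barcodes in CCK1/2-KO. The cell filter left 9244 and 11470 of them, medians 2975 and 2774.5 UMIs, and 52 barcode sequences were shared by both libraries. The cholecystokinin gene ccka stood at 376 CPM (UMIs per 1000000 UMIs of the same cells) in WT and at 163 CPM in CCK1/2-KO, or −1.20 (−1.24 to −1.17) as a log2 ratio. Which of cck1 and cck2 this name stands for is not given in the sources used here, and a deletion need not remove the transcript end that is read, so ccka checks the label only in part. Cells were put into classes by raw UMIs of marker genes, none of them a member. Neurons numbered 2305 in WT and 2816 in CCK1/2-KO, with medians of 8813 and 7804 UMIs. Of these, 976 and 1145 were GABAergic by gad1b, gad2 and slc32a1, and 744 and 894 were glutamatergic by the vesicular glutamate transporter genes. A further 154 and 185 passed both limits and were called dual, and 431 and 592 passed neither and are called other neurons. Dual neurons were deeper, with medians of 14497 and 12947 UMIs, against 9468.5 and 8233 in GABAergic and 9198 and 8496.5 in glutamatergic neurons. Whether doublets of the 2 neuron types are among them was not tested. The remaining classes were astroglia (859 and 1011 cells), oligodendrocytes (341 and 318), oligodendrocyte precursors (52 and 81), microglia or macrophages (298 and 390), T or NK cells (189 and 151), endothelium (97 and 125) and mural cells (111 and 132). Erythrocytes (1241 and 1790 barcodes, medians of 1021 and 962 UMIs), which should lack these receptors, served as the background class. The hypothalamic transcription factor genes otpa and otpb marked 183 and 185 neurons, and nr5a1b or fezf1 marked 94 and 146.

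The names need care. Of the members, 10 carry capitals in the feature list, and gabrr1 and GABRR1 are separate features, as are gabrb2a and GABRB2, gabrr2a and GABRR2, and gabra6a and GABRA6. The sequences of such pairs, and of glrba and glrbb, were not compared here, so how far reads could be split between them was not tested. A further 8 genes of these families were listed by identifier only and are not members by the rule. The supplied name table calls them gabrg3, gabrp, gabra2a, gabra3, gabrb1, gabrb4, gabbr1b and gabrr3b, and they are given only where they complete a family. A UMI stands for 1 transcript read from its 3′ end, so levels were not divided by gene length, and levels of different genes still depend on how well each 3′ end is annotated.

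Among the GABA-A alpha subunits, gabra4 led in both libraries. The gene gabra4, in mammals a subunit of receptors outside synapses, had 3282 UMIs in WT (63.6 CPM, 61.4 to 65.8) and 3747 in CCK1/2-KO (64.7 CPM, 62.6 to 66.8). GABRA5, whose mammalian counterpart serves tonic inhibition in the hippocampus, was lower, at 376 UMIs (7.28 CPM) and 543 UMIs (9.37 CPM). The alpha-6 genes, which in mammals mark cerebellar granule cells, were the rarest, with 71 and 65 UMIs of GABRA6 (1.37 and 1.12 CPM) and 36 and 31 UMIs of gabra6a (0.697 and 0.535 CPM). Both libraries gave these members the same order of level.

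Of the beta subunits, gabrb2a was the most abundant by a wide margin. It had 11148 UMIs in WT (216 CPM, 212 to 219.9) and 10628 in CCK1/2-KO (183 CPM, 179.9 to 186.9). Its copy GABRB2 had 2254 and 2493 UMIs (43.6 and 43.0 CPM), intervals that overlapped between the libraries.

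Among the gamma, delta and zeta members, GABRG1 had 236 and 262 UMIs (4.57 and 4.52 CPM) and the fish zeta subunit gene gabrz had 245 and 425 UMIs (4.74 and 7.33 CPM). GABRD, which in mammals serves receptors outside synapses, was rare at 106 and 100 UMIs (2.05 and 1.73 CPM). The gamma gene listed by identifier only, gabrg3, stood at 258 and 253 CPM, so that most UMIs of this group of subunits are outside the name rule: in neurons gabrg3 held 75.4% and 76.8% of them.

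The rho subunits were scarce. The gene gabrr2a had 501 UMIs in WT (9.70 CPM, 8.87 to 10.6) and 423 in CCK1/2-KO (7.30 CPM, 6.62 to 8.03), and GABRR2 had 430 and 407 UMIs (8.33 and 7.02 CPM). The other rho genes had at most 28 UMIs in a library: gabrr3a stood at 0.542 and 0.414 CPM, gabrr1 at 0.252 and 0.190 CPM, and GABRR1 at 0.194 and 0.311 CPM. Together with gabra6a and glra4b these 5 members were under 1 CPM in both libraries, and nothing is read from their differences.

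The GABA-B subunit gene gabbr2 was the most abundant member of all. It had 25008 UMIs in WT (484 CPM, 478 to 490.3) and 27381 in CCK1/2-KO (472 CPM, 467 to 478). Its partner GABBR1 had 3788 UMIs (73.4 CPM, 71.0 to 75.7) and 4704 UMIs (81.2 CPM, 78.9 to 83.5). The second copy of that partner, gabbr1b, is listed by identifier only and stood at 127 and 129 CPM. Of all GABA-B UMIs with gabbr1b counted in, gabbr2 held 71.7% in WT neurons and 70.6% in CCK1/2-KO neurons.

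Summed over members in all cells, glycine alpha genes stood at 117 and 112 CPM and glycine beta genes at 125 and 122 CPM. The GABA-B members summed to 558 and 554 CPM. The beta subunit gene glrbb had 6128 UMIs in WT (119 CPM, 116 to 122) and 6745 in CCK1/2-KO (116 CPM, 114 to 119), while its copy glrba had 335 and 300 UMIs (6.49 and 5.18 CPM). Among the alpha subunits, glra3, which in the mammalian spinal cord serves pain pathways, had 2269 and 2001 UMIs (43.9 and 34.5 CPM). The gene glra1, the main alpha subunit of the adult mammalian spinal cord, had 1668 and 1751 UMIs (32.3 and 30.2 CPM). For glra2, which in mammals leads before birth, the counts were 1430 and 1928 UMIs (27.7 and 33.3 CPM). The alpha-4 genes, of which the human counterpart is a pseudogene, split into glra4a with 652 and 762 UMIs (12.6 and 13.1 CPM) and glra4b with 31 and 39 UMIs (0.60 and 0.673 CPM). The alpha members followed the order glra3, glra1, glra2, glra4a in WT, whereas in CCK1/2-KO glra3 and glra2 had overlapping intervals and both lay above glra1.

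**Figure D1:**
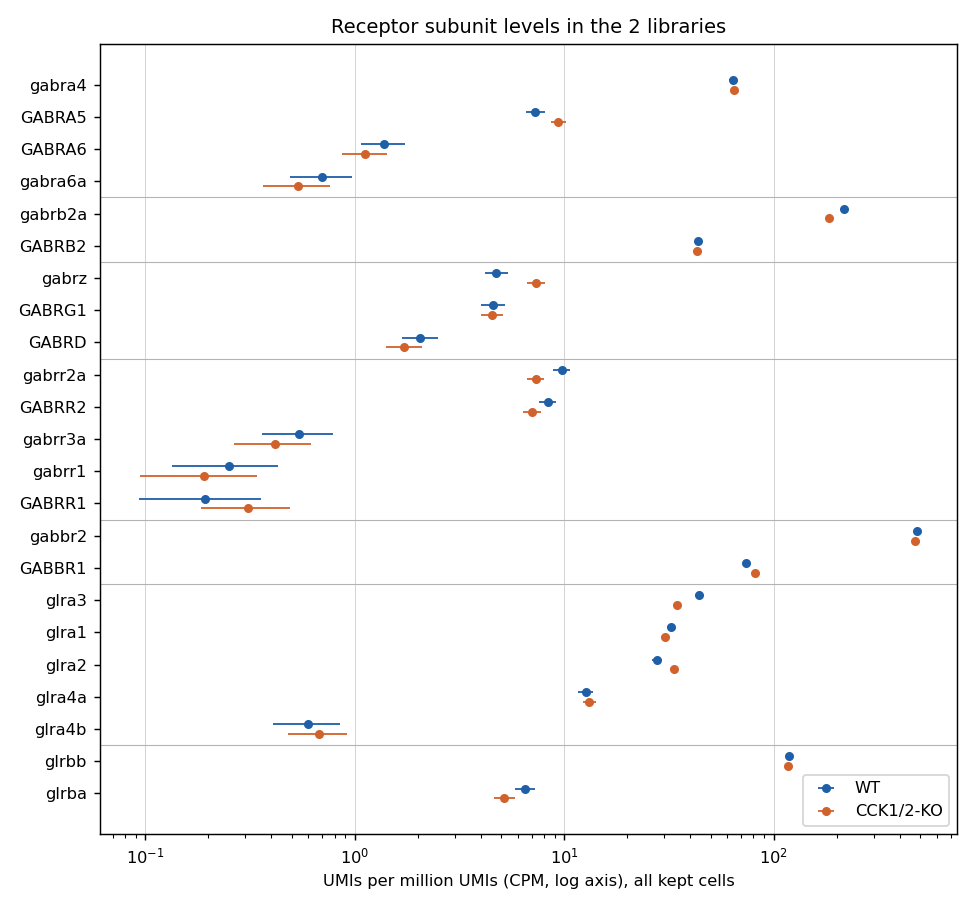
Level of 23 of the 26 members over all kept cells, in UMIs per 1000000 UMIs (CPM) on a log axis, WT in blue and CCK1/2-KO in orange, with exact Poisson 95% intervals of counting error; lines separate alpha, beta, gamma with delta and zeta, rho, GABA-B, glycine alpha and glycine beta genes. The gene gabbr2 stands highest at 484 and 472 CPM, and GABRR1 and gabrr1 lie under 1 CPM.

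By cell class, the members were largely genes of neurons. The gene gabbr2 had a UMI in 84.1% of GABAergic neurons and 90.9% of glutamatergic neurons in WT, and in 85.4% and 90.6% in CCK1/2-KO. After thinning each cell with at least 1000 UMIs to that number, these shares were 45.3% and 58.3% in WT and 43.7% and 55.9% in CCK1/2-KO, against 6.41% and 5.33% of erythrocytes. Cells with fewer than 1000 UMIs were left out of the thinned shares, many of them erythrocytes, whose medians were 1021 and 962 UMIs. In GABAergic neurons the leading members were gabbr2 (746 CPM in WT and 703 in CCK1/2-KO), gabrb2a (330 and 260), glrbb (221 and 216) and GABBR1 (89.2 and 97.2). In glutamatergic neurons the leading 5 were gabbr2 (1032 and 952 CPM), gabrb2a (352 and 301), glrbb (205 and 209), gabra4 (197 and 180) and GABBR1 (135 and 148), the same genes in both libraries.

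**Figure D2:**
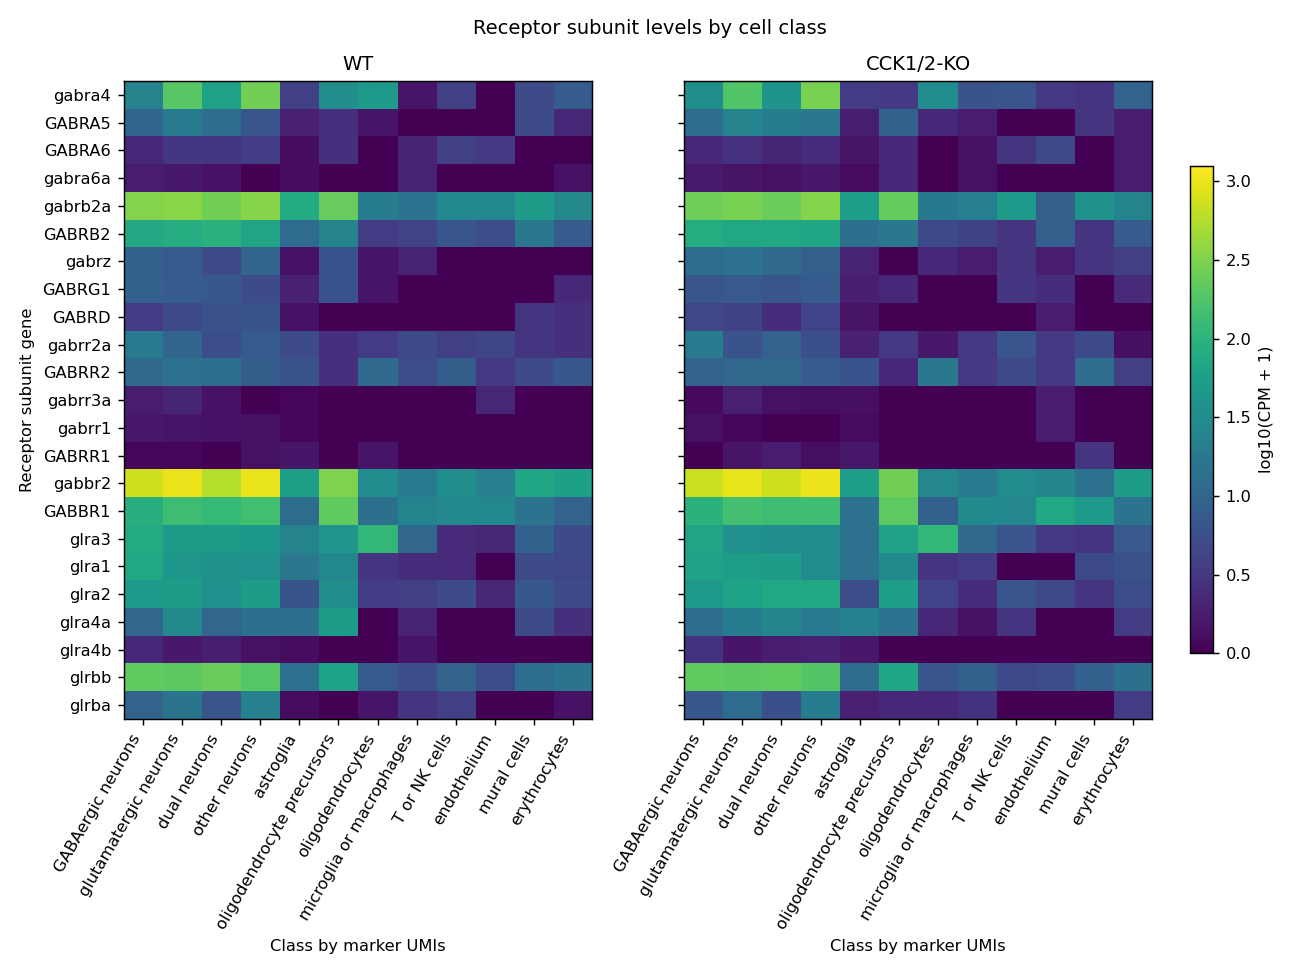
Level of 23 of the 26 members (rows) in 12 cell classes set by marker UMIs (columns) in WT (left) and CCK1/2-KO (right), as log10(CPM + 1) by colour. Neuron columns are bright for gabbr2, gabrb2a and glrbb; gabra4 is bright in glutamatergic and other neurons but not in GABAergic neurons; glra3 is brightest in oligodendrocytes.

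The gene gabra4 set the neuron classes apart more than any other member. It had 239 UMIs in WT GABAergic neurons (23.6 CPM) against 1617 in glutamatergic neurons (197 CPM), and 349 (33.5 CPM) against 1608 (180 CPM) in CCK1/2-KO. The GABAergic over glutamatergic log2 ratio was −3.06 (−3.26 to −2.86) in WT and −2.43 (−2.60 to −2.26) in CCK1/2-KO. Neurons that passed neither transmitter limit had still more, at 277 and 298 CPM, and dual neurons lay between at 58.0 and 39.6 CPM. With the UMI minimums of the classes doubled, the ratios were −2.55 and −1.86. Of all UMIs of alpha subunits, with the identifier-only genes gabra2a and gabra3 counted in, gabra4 made up 11.1% and 14.5% in GABAergic neurons and 51.2% and 48.1% in glutamatergic neurons. In GABAergic neurons gabra3 made up 36.2% and 29.4%.

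Other members also differed between the neuron classes in both libraries. Of the 20 members with at least 100 UMIs in these cells, 2 were past 1.5-fold higher in GABAergic neurons in both libraries and 5 were past 1.5-fold lower, beside 10.1% of all 13829 genes with that minimum past it in either direction. The higher ones were glra3 and gabrr2a. The log2 ratios of glra3 were 0.72 (0.54 to 0.90) in WT and 0.81 (0.61 to 1.00) in CCK1/2-KO. Those of gabrr2a were 0.92 (0.53 to 1.33) and 1.71 (1.24 to 2.21). In CCK1/2-KO GABAergic neurons a few cells held many of the gabrr2a UMIs, as given below. Over the processing alternatives its ratio ranged from 0.74 to 0.94 in WT and from 1.28 to 1.78 in CCK1/2-KO. The lower ones, beside gabra4, were GABRA5 (−1.01 and −1.02), glra4a (−1.63 and −0.76), glrba (−0.75 and −0.92) and GABBR1 (−0.60 and −0.60). The gene gabbr2 went the same way as its partner by less, with −0.47 and −0.44. By contrast glrbb had nearly equal levels in the classes, with ratios of 0.11 and 0.05. For glra1 the ratio was 0.73 (0.54 to 0.91) in WT and 0.19 (0.01 to 0.36) in CCK1/2-KO. The intervals of the libraries also lay apart for gabra4, as given above, and for glra4a (−1.98 to −1.28 in WT and −1.11 to −0.42 in CCK1/2-KO). They did so too for GABRB2 (−0.28 to 0.02 and 0.06 to 0.36). For glra1, gabra4, glra4a and GABRB2 the contrast between neuron classes was thus unlike in the libraries, a difference that was not tested.

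**Figure D3:**
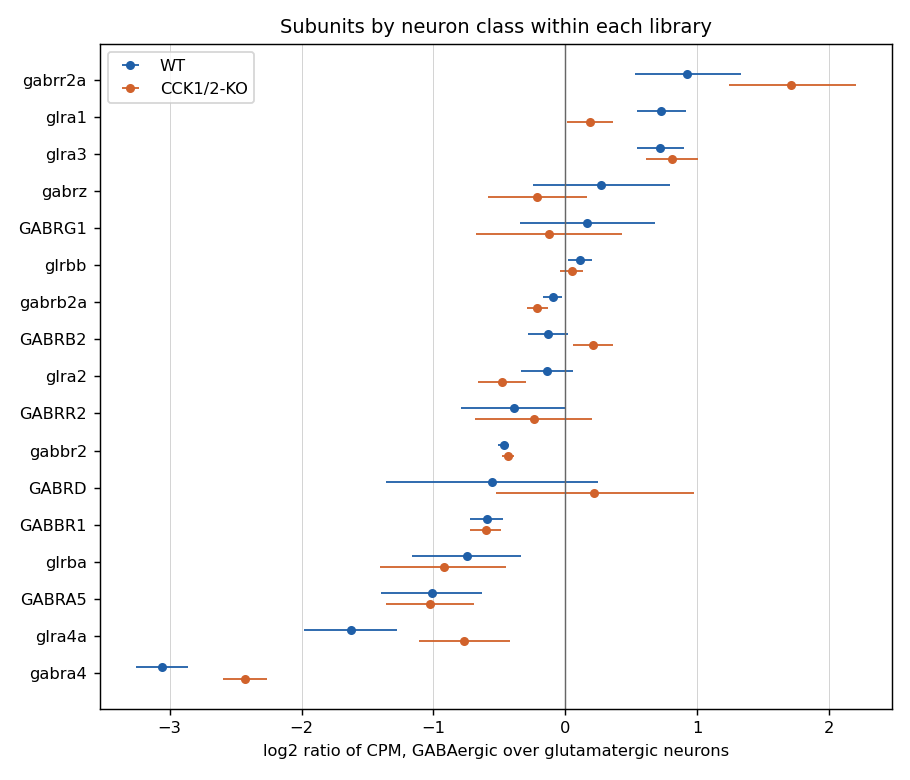
GABAergic over glutamatergic log2 ratio of CPM for 17 of the 20 members with at least 100 UMIs in these neurons, WT in blue and CCK1/2-KO in orange, with exact 95% intervals of counting error. The gene gabra4 lies lowest, at −3.06 and −2.43, and gabrr2a highest, at 0.92 and 1.71. The latter value rests in part on few cells. Opposite signs in the 2 libraries are seen for gabrz, GABRG1, GABRB2 and GABRD.

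Subunit levels were also compared in smaller neuron groups. Counts of members past 1.5-fold in these groups are of the 20 with at least 100 UMIs in neurons. Neurons with at least 5 UMIs of nr5a1b and fezf1, genes that mark the ventromedial hypothalamus, were deep, with medians of 17048 and 12830 UMIs. Medians were 11443 and 10040 in otp neurons and 8813 and 7804 in all neurons, and the part of depth was not tested. The nr5a1b or fezf1 neurons had 43.5 and 44.9 CPM of GABRA5. Its log2 ratios over the other neurons were 2.1 (1.69 to 2.49) and 1.63 (1.29 to 1.96). In these neurons 2 members were past 1.5-fold higher, GABRA5 among them, and 3 lower in both libraries (gabra4, glra3 and gabrz), beside 17.1% of all genes in either direction. Of these, gabrz had only 6 and 8 UMIs in this group, and its WT interval (−2.49 to 0.13) held 0. The gene gabrg3, listed by identifier only, was also higher in these neurons, with log2 ratios of 0.69 (0.60 to 0.78) and 0.76 (0.67 to 0.84).

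Monoaminergic neurons (354 and 351 cells with at least 5 UMIs of slc18a2, ddc, tyrosine hydroxylase, tph or hdc genes) were compared in the same way. Here gabrr2a stood at 28.4 and 18 CPM, log2 ratios over the other neurons of 1.64 (1.27 to 2.01) and 0.94 (0.49 to 1.37). It was the only one of the 20 members past 1.5-fold higher in both libraries, with 3 lower (glrba, glra4a and gabra4). The share of members past it was near the 20.1% of all genes. Of the lower ones, glrba had 13 and 18 UMIs in this group and glra4a 14 and 29. The zeta gene gabrz came next after gabrr2a, with 1.33 (0.82 to 1.81) and 0.58 (0.12 to 1.02), the latter just under 1.5-fold. The beta gene gabrb2a was higher by 0.63 and 0.45. A set of RefSeq neighbours, gabra2a, gabrg1 and gabrb1, was examined here. The identifier-only gabrb1 was at 226 and 219 CPM, ratios of 1.61 and 1.82, and gabra2a had ratios of 0.85 and 1.29, while GABRG1 had 0.98 (0.43 to 1.5) in WT but 0.21 (−0.51 to 0.87) in CCK1/2-KO.

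In otp neurons, a group that includes neurosecretory cells, 1 of the 20 members was past 1.5-fold higher than in the other neurons in both libraries (glra4a, at 31.5 and 27.4 CPM). A further 5 were lower, among them GABRA5, glrba, GABRD and gabra4, beside 10.5% of all genes in either direction. GABRD had only 4 and 2 UMIs in otp neurons, and the intervals of its ratios held 0 (−2.96 to 0.36 and −4.85 to 0.12). GABRA5 had 9 and 19 UMIs there and glrba 11 and 5. The level of gabra4 was 15.3 and 16.2 CPM, with ratios of −3.05 and −3.01. GABRA5 was therefore high in nr5a1b or fezf1 neurons and low in otp neurons in each library, and gabra4 was low in both groups.

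Astroglia had little of most members. Of the 20 members with at least 100 UMIs in astroglia and neurons together, 19 were past 1.5-fold lower in astroglia in both libraries, beside 32.1% of all 16178 genes. The 5 members with the most UMIs there in WT were gabrb2a (592 UMIs, 80.0 CPM), gabbr2 (406 UMIs, 54.8 CPM), glra3 (173 UMIs, 23.4 CPM), glra1 (117 UMIs, 15.8 CPM) and glrbb (99 UMIs, 13.4 CPM). In CCK1/2-KO they were gabbr2 (53.5 CPM), gabrb2a (52.2), glra4a (22.1), glra3 (13.9) and GABBR1 (13.7). Erythrocytes held 55.0 and 51.3 CPM of gabbr2 and 14.8 and 13.1 CPM of glrbb, so neither level in astroglia exceeded the erythrocyte level beyond counting error. Erythrocytes were far shallower, with medians of 1021 and 962 UMIs against 6070 and 5549 in astroglia. Whether their CPM gives the background of deeper cells was not tested. Erythrocytes held less of gabrb2a (27.5 and 23.7 CPM), glra3 (4.1 and 6.37 CPM) and glra1 (3.69 and 4.96 CPM). The exception among the 20 was glra4a, at 13.0 CPM in WT and 22.1 CPM in CCK1/2-KO astroglia, against 16.8 CPM in neurons of each library and 1.64 and 2.48 CPM in erythrocytes. Its astroglia over neuron log2 ratio was −0.37 (−0.71 to −0.05) in WT and 0.39 (0.13 to 0.64) in CCK1/2-KO.

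Oligodendrocytes, the myelinating glia, held 1 member at a high level. The glycine receptor gene glra3 had 220 UMIs in WT (110.5 CPM, 96.4 to 126) and 177 in CCK1/2-KO (112 CPM, 96.2 to 129.9), above its 60.1 and 46.1 CPM in neurons, with log2 ratios of 0.88 (0.67 to 1.08) and 1.28 (1.05 to 1.51). A UMI was present in 26.7% and 24.2% of oligodendrocytes. After thinning to 1000 UMIs, with shallower cells left out, it was present in 11.8% and 9.80%, against 0.305% and 1.09% of erythrocytes. The members most abundant in neurons were lower there than in erythrocytes: gabbr2 was at 30.1 and 26.6 CPM and glrbb at 6.53 and 5.70 CPM. The glycine alpha gene glra1 had only 4 and 3 UMIs. Without the 3 cells with the most UMIs of glra3, the level was 96.4 and 94.7 CPM. Of the 20 members, 18 were past 1.5-fold lower in oligodendrocytes than in neurons in both libraries, beside 36.5% of all 15172 genes, and glra3 was the only one past it in the higher direction. Among the lower ones GABRD had 0 UMIs in both libraries, glra4a 0 in WT and GABRG1 0 in CCK1/2-KO, and a count of 0 does not show absence. The remaining member, the rho gene GABRR2, was at 10.5 and 15.8 CPM, with log2 ratios over neurons of −0.11 (−0.83 to 0.53) and 0.83 (0.17 to 1.43). The member with the next most UMIs after glra3 was gabra4, at 47.2 and 30.4 CPM, against 6.97 and 8.49 CPM in erythrocytes. The gene gabrb2a, at 19.6 and 17.1 CPM, was under its erythrocyte level.

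Oligodendrocyte precursors, which are known to receive synapses from neurons, had higher levels of several members than the mature cells did. They had 320.0 and 267 CPM of gabbr2, 238 and 235 CPM of gabrb2a, and 62.0 and 67.6 CPM of glrbb. For glra3 the direction was the reverse, with 40.2 and 60.5 CPM in precursors, below the 110.5 and 112 CPM of oligodendrocytes. GABBR1 had its highest level of all classes there, with 130 UMIs in WT (218 CPM, 182 to 259) and 180 in CCK1/2-KO (213 CPM, 183 to 247). That was a log2 ratio over neurons of 0.93 (0.67 to 1.19) and 0.77 (0.55 to 0.99), whereas gabbr2 was lower than in neurons, with log2 ratios of −1.42 and −1.65. The class is small, 37 of its 52 and 53 of its 81 barcodes also passed the neuron limit, and without the 3 highest cells GABBR1 stood at 176 and 182 CPM.

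GABBR1 was also among the leading members in vessel and immune cells. It had 24 and 90 UMIs in endothelium (27.3 and 69.3 CPM), 24.1 and 29.7 CPM in microglia or macrophages, and 27.3 and 26.4 CPM in T or NK cells, against 8.61 and 14.2 CPM in erythrocytes. Its copy gabbr1b was at 7.96 and 10.8 CPM in endothelium and its partner gabbr2 at 21.6 and 25.4 CPM, below the 55.0 and 51.3 CPM of erythrocytes. Mural cells had 14.3 and 46.9 CPM of GABBR1, the latter on 24 UMIs with 66.7% of them in 3 cells. For gabbr2 mural cells had 65.5 and 13.7 CPM. The gene gabrb2a stood at 27.3 and 7.70 CPM in endothelium, 14.0 and 20.8 CPM in microglia or macrophages, 27.3 and 47.1 CPM in T or NK cells and 49.1 and 37.2 CPM in mural cells, against 27.5 and 23.7 CPM in erythrocytes. None of the other members had more than 29 UMIs in any of these classes.

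Over all cells, most member ratios of CCK1/2-KO over WT lay within 1.5-fold, as did those of most genes. Several members still had counting intervals clear of 0, as given below. Of the 26 members, 21 had at least 100 UMIs, and of these 1 was past 1.5-fold higher and 0 past 1.5-fold lower in CCK1/2-KO, beside 9.92% of all 18325 genes with that minimum past it in either direction. The median log2 ratio of the 21 members was −0.03, against 0.00 for all genes, with 8 above and 13 below 0. The ratios of gabrz and GABRA5 were among the 3 highest, and the 3 lowest were those of gabrr2a, glra3 and glrba.

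The gene past 1.5-fold was gabrz, with 4.74 CPM (4.17 to 5.38) in WT and 7.33 CPM (6.65 to 8.06) in CCK1/2-KO. Its log2 ratio was 0.63 (0.40 to 0.86). It rested on few cells: the share of cells with a UMI was 1.75% and 1.98%, and the 3 highest cells held 7.76% and 11.8% of the UMIs. Without them the ratio was 0.56, under 1.5-fold.

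The ratio of GABRA5 was 0.36 (0.17 to 0.56), whereas that of the identifier-only gabrg3 was −0.02 (−0.06 to 0.01). The glycine gene glra2 had 0.26 (0.17 to 0.36) and GABBR1 0.15 (0.08 to 0.21).

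On the lower side, gabrr2a had a ratio of −0.41 (−0.60 to −0.22). In CCK1/2-KO 3 cells held 18.4% of its UMIs, and with the 3 highest cells of both libraries left out the ratio was −0.62, past 1.5-fold. The ratio of glra3 was −0.35 (−0.44 to −0.26), with a share of cells of 10.3% in WT and 6.72% in CCK1/2-KO. The glycine beta gene glrba had −0.33 (−0.56 to −0.10), GABRR2 −0.25 (−0.45 to −0.05) and gabrb2a −0.24 (−0.27 to −0.20). The ratios of gabbr2 (−0.04), glrbb (−0.03), GABRB2 (−0.02), gabra4 (0.02), GABRG1 (−0.02), glra4a (0.06) and glra1 (−0.10) were all near 0. GABRD, rare in both libraries, had −0.25 (−0.66 to 0.16). Thus gabrb2a, the most abundant GABA-A beta gene, was slightly lower in CCK1/2-KO. The most abundant GABA-B and glycine beta genes, gabbr2 and glrbb, differed by less than 0.05 on the log2 scale.

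**Figure D4:**
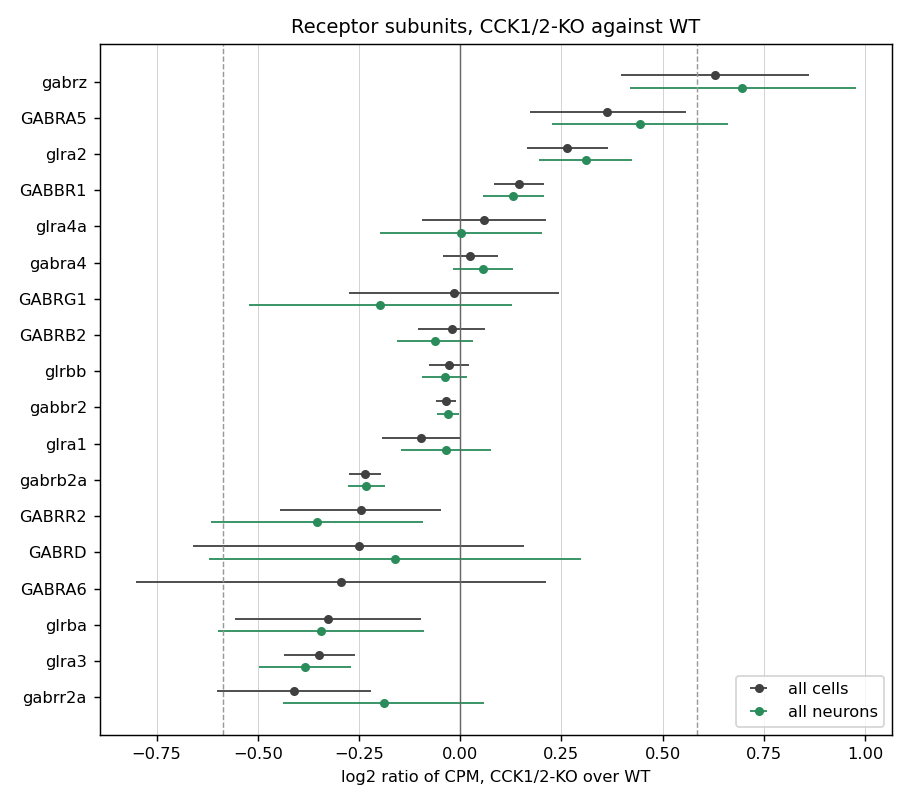
CCK1/2-KO over WT log2 ratio of CPM for members with at least 100 UMIs, over all kept cells (dark grey, 18 of 21 members) and over all neurons (green, 17 of 20 members), with exact 95% intervals of counting error and dashed lines at 1.5-fold. The gene gabrz is the only one past 1.5-fold, at 0.63 over all cells and 0.70 over neurons.

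In neurons alone the picture was much the same. Of the 20 members with at least 100 UMIs, 1 was past 1.5-fold higher (gabrz, at 0.70) and 0 past 1.5-fold lower, beside 8.45% of all genes, and the median ratio was −0.04 against 0.03. GABRA5 had 12.5 and 17 CPM, a ratio of 0.44 (0.23 to 0.66). The lowest were glra3 with 60.1 and 46.1 CPM (−0.38, −0.50 to −0.27), GABRR2 (−0.35) and glrba (−0.34). Summed by family over the members, glycine alpha subunits stood at 178 and 174 CPM and GABA-B subunits at 969 and 963 CPM. The largest family ratio in size was that of the rho subunits, at 24.7 and 20.3 CPM (−0.28, −0.46 to −0.11), and the GABA-B sum had the smallest, −0.01 (−0.04 to 0.02). That sum held classes with unlike ratios: −0.06 (−0.10 to −0.02) in GABAergic and −0.09 (−0.13 to −0.04) in glutamatergic neurons, but 0.35 (0.26 to 0.44) in dual neurons, at 686 and 873 CPM, a difference that was not tested.

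Within GABAergic neurons, 0 of the 19 members with at least 100 UMIs were past 1.5-fold in either direction, beside 8.76% of all genes. The 3 highest ratios were those of gabrz (7.91 and 11.6 CPM, 0.56, 0.14 to 0.98), gabra4 (23.6 and 33.5 CPM, 0.50, 0.26 to 0.75) and GABRA5 (9.29 and 11.4 CPM, 0.30, −0.10 to 0.70). Among the 3 lowest were those of glrba (8.70 and 5.86 CPM, −0.57, −1.07 to −0.08) and GABRG1 (7.91 and 5.76 CPM, −0.46, −0.96 to 0.04). With a larger count, gabrb2a had 330 and 260 CPM and a ratio of −0.34 (−0.41 to −0.27). For gabrr2a the levels were equal at 17.3 CPM, but 3 cells held 43.3% of its CCK1/2-KO UMIs, and the ratio was −0.57 when the 3 highest cells were left out. For glrba it was −0.59 with doublets removed, past 1.5-fold.

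Within glutamatergic neurons, 2 of the 19 members with at least 100 UMIs were past 1.5-fold higher and 1 was past 1.5-fold lower, beside 8.23% of all genes, and the median ratio was −0.12 against 0.02. One of the higher ones was gabrz, with a ratio of 1.04 (0.56 to 1.53) on 54 and 120 UMIs, with 41.7% of the latter in 3 cells, and the ratio was 0.65 without the 3 highest cells and 0.32 with doubled minimums. The third highest was glra2, with 49.4 and 62.5 CPM and a ratio of 0.34 (0.15 to 0.53). The lowest was gabrr2a, with 9.12 and 5.27 CPM and a ratio of −0.79 (−1.35 to −0.25), followed by glra4a (29.3 and 19.7 CPM, −0.57, −0.86 to −0.28) and GABRR2 (13.6 and 9.87 CPM, −0.46, −0.88 to −0.05). With each UMI minimum of the classes lowered by 1, glra4a had a ratio of −0.26. The ratio of glra3 was −0.39 (−0.61 to −0.18) in glutamatergic and −0.31 (−0.46 to −0.15) in GABAergic neurons, so this gene was lower in CCK1/2-KO in both.

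Astroglia had the highest share of members past 1.5-fold among the cell sets counted. Of the 11 members with at least 100 UMIs there, 2 were past 1.5-fold higher and 2 past 1.5-fold lower, beside 11.1% of all genes, and the median ratio was −0.0346, against −0.035 for all genes. One of the higher ones was glra4a (96 and 187 UMIs, 13.0 and 22.1 CPM, a ratio of 0.77, 0.40 to 1.14). The lower ones were glra3 (23.4 and 13.9 CPM, −0.75, −1.10 to −0.40) and gabrb2a (80.0 and 52.2 CPM, −0.61, −0.80 to −0.43), the latter at −0.58 without the 3 highest cells. GABBR1 had a ratio of 0.24 (−0.18 to 0.65). The GABAergic marker slc32a1, a gene of neurons, was also lower in CCK1/2-KO astroglia, at 16.7 and 9.67 CPM (−0.79, −1.21 to −0.38). The other GABAergic markers were not: gad2 had 80.9 and 77.1 CPM (−0.07, −0.23 to 0.09) and gad1b 7.02 and 6.96 CPM (−0.01, −0.58 to 0.55). In each library 3 cells held many of these UMIs, 32.9% and 26.0% for gad2 and 15.3% and 26.8% for slc32a1. The gad1b values rested on 52 and 59 UMIs. Whether neuron RNA in these cells had a part in the lower levels was not tested.

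**Figure D5:**
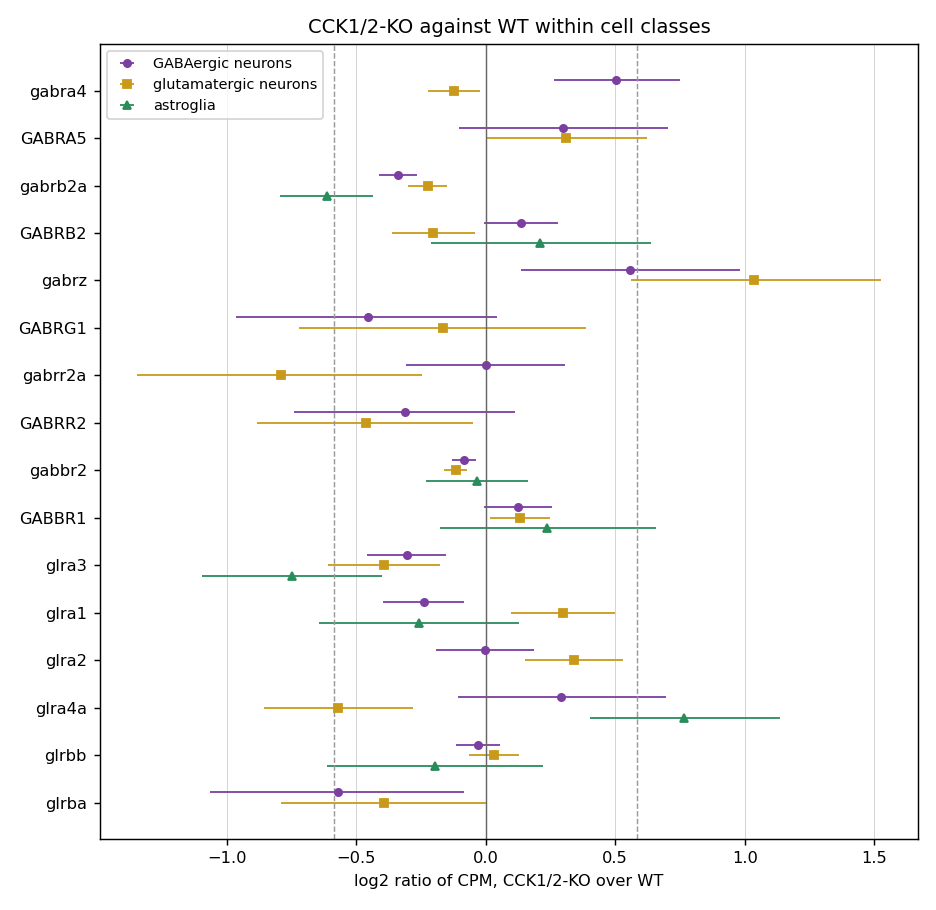
CCK1/2-KO over WT log2 ratio of CPM within GABAergic neurons (purple circles), glutamatergic neurons (yellow squares) and astroglia (green triangles), for the plotted members with at least 100 UMIs in the class, with exact 95% intervals of counting error and dashed lines at 1.5-fold. Here glra3 is below 0 in all 3 classes; glra4a, glra1 and gabra4 have classes on either side of 0.

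The genotype ratio of glra3 was not alike in all cell groups. In oligodendrocytes it was 0.02 (−0.27 to 0.31). In otp neurons the gene had 188 UMIs in WT (84.7 CPM) and 76 in CCK1/2-KO (37.2 CPM), a ratio of −1.19 (−1.59 to −0.79), with 27.1% and 27.6% of these UMIs in 3 cells. In monoaminergic neurons it had 57.7 and 74.5 CPM, a ratio of 0.37 (0.09 to 0.65). It was thus lower in CCK1/2-KO in one neuron group and higher in another, a difference that was not tested.

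Among the other ratios in otp neurons, glra2 had 0.34 (−0.13 to 0.80) and glrbb −0.22 (−0.41 to −0.04). In monoaminergic neurons the lowest was glra1, with 40.5 and 22.1 CPM (−0.87, −1.31 to −0.45) and 31.4% of its WT UMIs in 3 cells, followed by gabrr2a (−0.66, −1.16 to −0.17) and gabrb2a (−0.36, −0.47 to −0.25). The highest there was gabra4 (0.58, 0.30 to 0.86), followed by glra3 and GABRB2 (0.32, −0.01 to 0.65). In nr5a1b or fezf1 neurons low ratios were those of gabrb2a (−0.51, −0.72 to −0.30) and glra1 (−0.39, −0.83 to 0.05). The highest were gabra4 (0.90, with 83.9% of its 31 WT UMIs in 3 cells) and glra2 (0.77, 0.31 to 1.25).

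In dual neurons gabbr2 had 569 and 736 CPM, a ratio of 0.37 (0.27 to 0.47). There glra2 had 85 and 189 UMIs (35.0 and 68.7 CPM), a ratio of 0.97 (0.60 to 1.36), and glra1 one of 0.39, while gabra4 had −0.55 and glra3 −0.50. In other neurons glra2 had 0.51 (0.19 to 0.82), and the lowest were glra3 with −0.48 (−0.88 to −0.09), glra1 with −0.23 and glrba with −0.15. In oligodendrocytes gabra4 had 94 and 48 UMIs, a ratio of −0.64 (−1.17 to −0.12), and gabbr2 a ratio of −0.18 (−0.79 to 0.41). In precursors all 4 members with at least 100 UMIs had intervals that held 0, as had gabbr2 and gabrb2a in erythrocytes. In endothelium GABBR1 had 1.35 (0.68 to 2.06) on 24 WT UMIs, and in microglia or macrophages 0.30 (−0.22 to 0.84). These groups are small, and the intervals do not cover which cells were captured.

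The glycine alpha and beta subunits were also looked at cell by cell. Of the WT neurons with a UMI of a glycine alpha gene, 78.6% (76.3 to 80.8) also had one of glrba or glrbb, against 59.0% (55.9 to 62.0) of the others. In CCK1/2-KO these shares were 74.0% (71.7 to 76.2) and 62.4% (59.8 to 65.0). The neurons with an alpha UMI were deeper, with medians of 10824 against 6575 UMIs in WT and 9247 against 6433 in CCK1/2-KO, so the shares do not compare expression. Most neurons with an alpha transcript also had a detected beta transcript.

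Genes that make, move and anchor these transmitters and receptors were examined in the same way. Of 49 listed genes, 41 were matched, and 37 of these had at least 100 UMIs over all cells. Of the 37, 2 were past 1.5-fold higher and 0 lower in CCK1/2-KO, beside the 9.92% of all genes, with a median log2 ratio of −0.03. The higher ones were lhfpl4b, related to a mammalian gene that holds GABA-A receptors at synapses, with 1.41 and 2.21 CPM (0.64, 0.22 to 1.08), and kcnj6, a potassium channel gene that GABA-B receptors act on, with 0.833 and 1.45 CPM (0.80, 0.25 to 1.37). In GABAergic neurons kctd12.2, related to a mammalian auxiliary subunit of GABA-B receptors, had 27.3 and 16.4 CPM (−0.73, −1.02 to −0.45), and in glutamatergic neurons shisa7a, related to a mammalian GABA-A receptor auxiliary protein, had 13.0 and 21.3 CPM (0.71, 0.36 to 1.07). The gephyrin genes gphna and gphnb had ratios of −0.03 and 0.02, and the main GABA-synthesis gene by level, gad2, one of 0.03. Lower, though within 1.5-fold, were gad1b, the other synthesis gene (−0.36, −0.40 to −0.31), and the vesicular transporter gene slc32a1 (−0.23, −0.27 to −0.20). Of the GABA uptake genes, slc6a1a (91.9 and 75.7 CPM) had −0.28 (−0.34 to −0.22), and its more abundant copy slc6a1b (552 and 499 CPM) had −0.14 (−0.17 to −0.12). The gene abat, which breaks GABA down, was higher (0.30, 0.25 to 0.36). For glycine transport, slc6a9 had 85.1 and 72.1 CPM (−0.24, −0.30 to −0.18). The glycinergic marker slc6a5 was rare, with 40 and 49 UMIs in 27 and 25 cells.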

How the data were processed

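Hypothalami of male zebrafish were measured by droplet-based single-cell RNA-seq, with 1 library per genotype. The authors deposited, for each library, a matrix of raw UMI counts per gene and barcode, with no normalization and no cell types. The submitters' processing notes name Cell Ranger, Seurat and the build GRCz11, and the annotation release is not given in the sources used here. The RefSeq gene table is of another assembly, so it served only, by symbol, to tell which genes neighbour each other, and no coordinates are given.

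The cell filter asked for at least 500 UMIs, 250 genes and no more than 20% mitochondrial UMIs. It dropped 117 WT and 130 CCK1/2-KO barcodes for few UMIs or genes, and 3 and 4 for mitochondrial UMIs. Of 115 markers, 107 were found. A neuron had UMIs of at least 8 of 12 neuron genes and was GABAergic with at least 3 UMIs of GABAergic markers and glutamatergic with at least 2 of glutamatergic markers. Astroglia needed 32 UMIs over 5 genes, oligodendrocytes 64 over 4, precursors 5 over 3, microglia or macrophages 32 over 4, T or NK cells 4 over 2, endothelium 4 over 3 and mural cells 8 over 4. Erythrocytes had at least 10% haemoglobin-list UMIs and passed nothing else. These limits were set after the marker counts were seen, from those counts alone. Barcodes of several lineages (281 and 270) and of none (3470 and 4386) had no class. No doublets were removed in the main values.

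Levels are UMIs summed over cells per 1000000 UMIs (CPM), with exact Poisson 95% intervals, and ratios of CCK1/2-KO over WT carry the exact conditional interval. Shares of cells carry Clopper-Pearson intervals, and thinned shares use 1000 UMIs per cell and leave out cells with fewer. UMIs within a cell are not independent, so intervals are too narrow where a few cells hold many. Both groups were taken from the genotype label. A gene counted as past 1.5-fold needed at least 100 UMIs, and members with at least 200 were given in full. The rule for named genes asked for the 3 highest and 3 lowest ratios and the 5 members with the most UMIs per class. It was followed only in part in the smaller classes, and members not reported here are left out of it. Other values named in the smaller classes, and the neuron groups by otp, nr5a1b or fezf1 and monoaminergic genes (5 UMIs), were chosen after they were seen. The alternatives were other cell filters, Scrublet doublet removal, leaving out the 3 highest cells, another scaling total and other UMI minimums of the classes. Those minimums were doubled, or lowered by 1. Gene minimums, the haemoglobin limit and the 5 UMIs of the neuron groups stayed as they were. Of the 26 members, 3 are not reported here one by one and are left out of the plots, though counts and medians over members hold them. The members and gene lists were chosen with earlier results of these data known. The ratio interval was tested on simulated counts drawn independently from Poisson distributions, the model it assumes. That simulation held no cells, so it cannot show how the interval does where UMIs cluster within cells. Python 3.11.15, numpy 2.4.6, scipy 1.17.1, pandas 2.3.3 and scanpy 1.11.5 were used.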

Additional observations from a re-analysis of the deposited data

Results flagged for a closer look

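Among GABAergic neurons, glutamatergic neurons and astroglia, the only classes compared for this, log2 ratios of CCK1/2-KO over WT lay on opposite sides of 0, with counting intervals clear of 0, in a pair of classes for 3 members. For glra4a the ratio was 0.77 in astroglia and −0.57 in glutamatergic neurons. For glra1 it was 0.30 in glutamatergic neurons and −0.24 in GABAergic neurons. For gabra4 it was 0.50 in GABAergic neurons and −0.12 in glutamatergic neurons. With 1 library per group these differences between classes were not tested. In glutamatergic neurons the ratio of gabra4 was −0.04 with lowered marker minimums and −0.06 with doublets removed, and that of glra4a was −0.26 with lowered minimums.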

How the results depend on the processing

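The median log2 ratio of the members ranged from −0.05 to −0.02 over all cells, from −0.03 to 0.04 in GABAergic neurons, from −0.14 to −0.04 in glutamatergic neurons and from −0.23 to 0.10 in astroglia. Of the single values, 96 stayed within counting error and 2 did not with doublets removed, and 92 and 6 without the 3 highest cells. These counts were 72 and 5 with doubled marker minimums, and 75 and 2 with lowered ones. Lowering by 1 hardly altered the minimums of 32 UMIs for astroglia and 64 for oligodendrocytes, so it could move little in those classes. With the other scaling total 90 stayed and 0 moved. Only 21 values were checked with every barcode and with the stricter cell filter, and 0 moved. Every barcode brought WT to 51744329 UMIs from the 51639933 kept, so that setting could move little. None of the values changed sign beyond counting error. Without the minimum of 100 UMIs, 2 members were past 1.5-fold over all cells rather than 1, GABRR1 with 10 and 18 UMIs being added. With doublets removed, 1 member (glrba) was past 1.5-fold in GABAergic neurons rather than 0. With lowered marker minimums gabrz, glrba and GABRG1 passed it there, at 0.66, −0.65 and −0.59. With doubled ones glrba stood at −0.61. The ratio of glra4a in glutamatergic neurons was −0.61 without the 3 highest cells, and that of gabrb2a in astroglia was −0.54 with doubled minimums. Thinning to 1000 UMIs brought the share of cells with gabbr2 to 45.3% and 43.7% in GABAergic and to 58.3% and 55.9% in glutamatergic neurons. The share of alpha UMIs held by gabra4 was 12.7% in CCK1/2-KO GABAergic neurons with doublets removed. With doubled minimums it was 40.5% in WT and 35.8% in CCK1/2-KO glutamatergic neurons. The cause of these shifts was not tested. Without the identifier-only genes, a choice made after seeing the data, it was 19.4% and 23.0% in GABAergic and 63.4% and 58.4% in glutamatergic neurons, since fewer genes share the total. No paired analysis was possible because each group has 1 library. By their Scrublet scores 684 barcodes were marked in WT and 1052 in CCK1/2-KO. Their medians of 2279 and 2078 UMIs lay under the 3062 and 2879 of unmarked barcodes. How many to mark was fixed beforehand, at 0.8% per 1000 barcodes, and the highest scores were taken. Whether the marked barcodes are doublets was not tested, so values with doublets removed are values without these barcodes. Members with under 100 UMIs in a class are limited by depth.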
